A study of Mus musculus with 4 samples.

Results

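Ion channel genes were examined in mouse oligodendrocytes, the cells that form myelin in the brain, with and without the palmitoyltransferase gene Zdhhc5. The members were all rows of the deposited table whose gene symbol belongs to a potassium (Kcn), sodium (Scn), calcium (Cacn), chloride (Clcn, Ano), HCN, TRP, ryanodine receptor or inositol trisphosphate receptor family. The rule found 54 of the 6940 genes in the table, and the GENCODE M21 annotation holds 191 genes with such a symbol. Of the 54, 53 are annotated as protein-coding, and 52 are channel subunits. Trpc4ap, which encodes a protein that binds a TRP channel, and Kcnq1ot1, a non-coding antisense RNA, matched by symbol only.

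RNA was sequenced from 4 libraries, 2 per genotype, of C57BL/6 cells taken from cortex at postnatal day 5 and panned with antibodies to GalC and O4. After 6 days of growth the cells were given triiodothyronine at 40 ng/mL and collected 24 h later. Both genotypes were Zdhhc5fl/fl, and these cells without Cre are called control. The knockout cells, labelled cKO, were Olig1cre/+;Zdhhc5fl/fl, so Cre sat in the Olig1 locus in cKO libraries alone, and its own effect cannot be told apart from that of Zdhhc5. The labels do not say if same-genotype libraries are from different animals or cultures, so the spread between them may be technical. The level of Zdhhc5 was not analysed here, and the genotype labels were not checked by it.

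Ion channels are membrane proteins that let selected ions pass down their gradients. A pore-forming subunit sets the ion that passes, and auxiliary subunits set how many channels reach the membrane and how they open and close. In the oligodendrocyte lineage, potassium channels set the resting potential and the response to potassium released by active axons, and calcium entry and release accompany process growth and differentiation. Chloride/proton exchangers of the Clcn family work mostly on endosomes and lysosomes.

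The potassium channels and their relatives, the HCN channels, share a selectivity filter, a short loop in the pore that passes potassium. Its codons are shown here for 4 members in 2 pairs, chosen after their values were seen, each with a gene that was lower in cKO cells followed by a gene that was higher. Each sequence is 45 bases of the coding strand of the GENCODE M21 transcript with the longest coding sequence, on the GRCm38 build, and capitals mark the 5 codons (15 bases) of the filter.
Kcna2: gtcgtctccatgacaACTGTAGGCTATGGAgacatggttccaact
Kcnc1: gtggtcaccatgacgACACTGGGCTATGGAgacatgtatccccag
Hcn2: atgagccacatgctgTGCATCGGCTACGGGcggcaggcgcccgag
Hcn4: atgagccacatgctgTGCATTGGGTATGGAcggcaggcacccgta

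All 4 stretches lie in coding exons on the plus strand: exon 3 of Kcna2 (chr3:107105209-107105253), exon 2 of Kcnc1 (chr7:46427958-46428002), and exon 4 of both Hcn2 (chr10:79728938-79728982) and Hcn4 (chr9:58855570-58855614). Kcna2 and Kcnc1 differed at 12 of the 45 bases and at 3 of the 15 filter bases. For Hcn2 and Hcn4 the numbers were 7 and 4. The search, widened to include leucine after Kcnc1 had been missed, took the codons of threonine, serine or cysteine, then valine, isoleucine or leucine, then glycine, then tyrosine or phenylalanine, then glycine. It found them in 21 of 22 pore-forming potassium and HCN members, among genes that were higher and genes that were lower alike, and the letters were not found in Kcnk1. These channels share the filter as a family, so its presence in members of both directions was given beforehand and says nothing about their changes.

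Values below are normalised reads, the read count of a gene divided by a size factor of its library, with means given ± SD (n = 2 libraries in each genotype). The listed genes held 13672254 to 20068016 reads per library. Folds are ratios of genotype means. A log2 fold change compares cKO with control as log2(value + 1), a scale that makes the changes of low genes look smaller. Genotypes were compared with limma over all 6940 genes, and an adjusted p (Benjamini-Hochberg) under 0.05 was taken as a call. The table lists only genes that the authors themselves had called, so 100% of the listed genes passed in either direction, and passing is no evidence about a member. For a single gene, an exact permutation test of 2 against 2 libraries cannot go below 0.333. In cultured cell mixtures, fewer cells of a type and less RNA per cell cannot be told apart.

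All 54 members passed the filter on low values. Of these, 32 (59.3%) were higher and 22 (40.7%) were lower in cKO cells, where 46.7% of all listed genes were higher and 53.3% were lower. The genotypes did not overlap in any member, the cKO libraries being above the controls in the 32 and below them in the 22, against 46.7% and 53.3% of listed genes. The median log2 fold change was 0.45, beside -0.22 over all listed genes. The falls were steeper than the rises: the 22 lower members had a median of -1.39 and the 32 higher members one of 0.74. Changes of at least 2-fold were downward in 12 members (22.2%, against 11.7% of listed genes) and upward in 8 (14.8%, against 5.68%), and 6 members were at least 4-fold lower (2.18% of listed genes) and 0 at least 4-fold higher (0.461% of listed genes). Large falls outnumbered large rises over the whole table as well.

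These shares depended on the correction for base composition. Transcripts of the higher members had a median GC content of 55.2% and those of the lower members 48.2%, and the same medians over all listed genes were 53.6% and 45.1%. With the trend of the fold change with GC content removed (GC correction), 21 members were higher and 20 lower (33.1% and 34.8% of listed genes), and members at least 1.5-fold higher went from 23 to 10 (17.4% and 13.3% of listed genes). Members at least 1.5-fold lower numbered 16 before and 18 after (27.6% and 16.5% of listed genes). Of the 22 lower members, 20 passed in the same direction after the removal, and of the 32 higher members also 20. What the GC trend comes from was not tested.

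**Figure D1:**
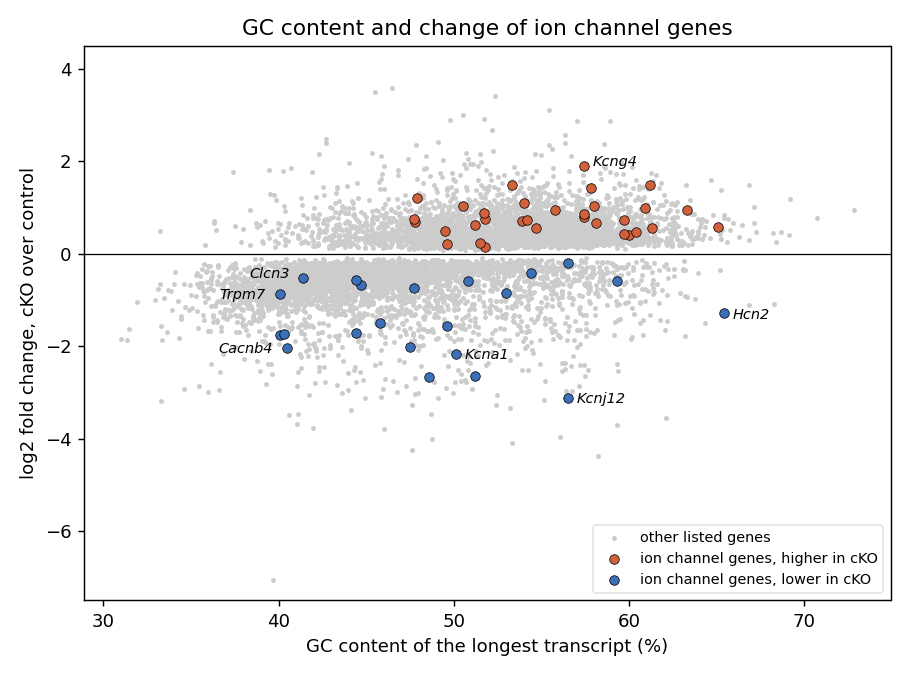
GC content of the longest transcript of each gene (horizontal axis, percent) against its log2 fold change, cKO over control (vertical axis). Grey points are other listed genes, blue points the 22 ion channel genes that were lower and orange points the 32 that were higher, the higher members lying further to the right with a median of 55.2% against 48.2%, while Kcnj12 and Hcn2 are lower at high GC content.

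Among voltage-gated potassium channels, the axonal type genes Kcna1 and Kcna2 fell and the fast-gating type gene Kcnc1 rose. Kcna1 (ENSMUSG00000047976, chr6:126640397-126646384) measured 1943 and 1866 normalised reads in controls, against 422.9 and 426.0 in cKO libraries. Kcna2 (ENSMUSG00000040724, chr3:107101146-107115005) measured 4311 and 4387 in controls, against 1610 and 1490 in cKO libraries. Both are low in both cKO libraries, far from any control value. Kcna1 was 4.49-fold lower (log2 fold change -2.16 with SE 0.06, and adjusted p 6.71e-19 by limma) and Kcna2 was 2.81-fold lower (log2 fold change -1.49 with SE 0.05, and adjusted p 2.15e-18 by limma). Their products assemble together in delayed rectifier channels that are best known from the juxtaparanode of myelinated axons and are also made by cells of the oligodendrocyte lineage.

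Kcnc1 (ENSMUSG00000058975, chr7:46396497-46438704), whose product gives the fast repolarisation of rapidly firing neurons, measured 1149 and 1180 in controls, against 2086 and 1939 in cKO libraries. Both cKO libraries were above both controls, by 1.73-fold (log2 fold change 0.79 with SE 0.05, and adjusted p 8.83e-12 by limma). In the controls Kcna2 had more reads per kb of transcript than Kcnc1 (365.3 against 123.1), and in cKO cells fewer (130.2 against 212.8). After GC correction the cKO levels were about equal (log2 ratio 0.03, against 1.57 in controls), so the exchange of order rested on the uncorrected values.

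The other voltage-gated potassium genes split as well, 8 of the 12 pore-forming members being higher and 4 lower (46.7% and 53.3% of listed genes). After GC correction 5 were higher and 3 lower (33.1% and 34.8% of listed genes). Kcnq3, which encodes a subunit of the slowly opening M-type channels, fell from 333.9 ± 8.6 to 101.8 ± 20.5, 3.28-fold. Kcnd2, which encodes a rapidly inactivating channel, was 1.48-fold lower (log2 fold change -0.57) and lost its call after GC correction (log2 fold change -0.13, limma adjusted p 0.676).

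Kcng4, Kcnf1 and Kcns1 encode subunits that form no channel alone and change the gating of others, and all 3 rose. Kcng4 measured 18.0 and 19.3 in controls, against 67.0 and 77.1 in cKO libraries, 3.86-fold higher, the steepest rise among the 54 members on both the ratio and the log2 scale. Kcnf1 rose 1.67-fold, from 301.2 ± 10.3, and Kcns1 1.97-fold, from 73.8 ± 16.6. Kcns1 lost its call after GC correction (log2 fold change 0.52, limma adjusted p 0.0615). Of the ether-a-go-go family, Kcnh3 rose from 11.1 ± 0.1 to 33.4 ± 7.0 and Kcnh2 from 181.2 ± 13.0 to 267.1 ± 8.2. Neither passed with the GC trend removed (limma adjusted p 0.0903 and 1).

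**Figure D2:**
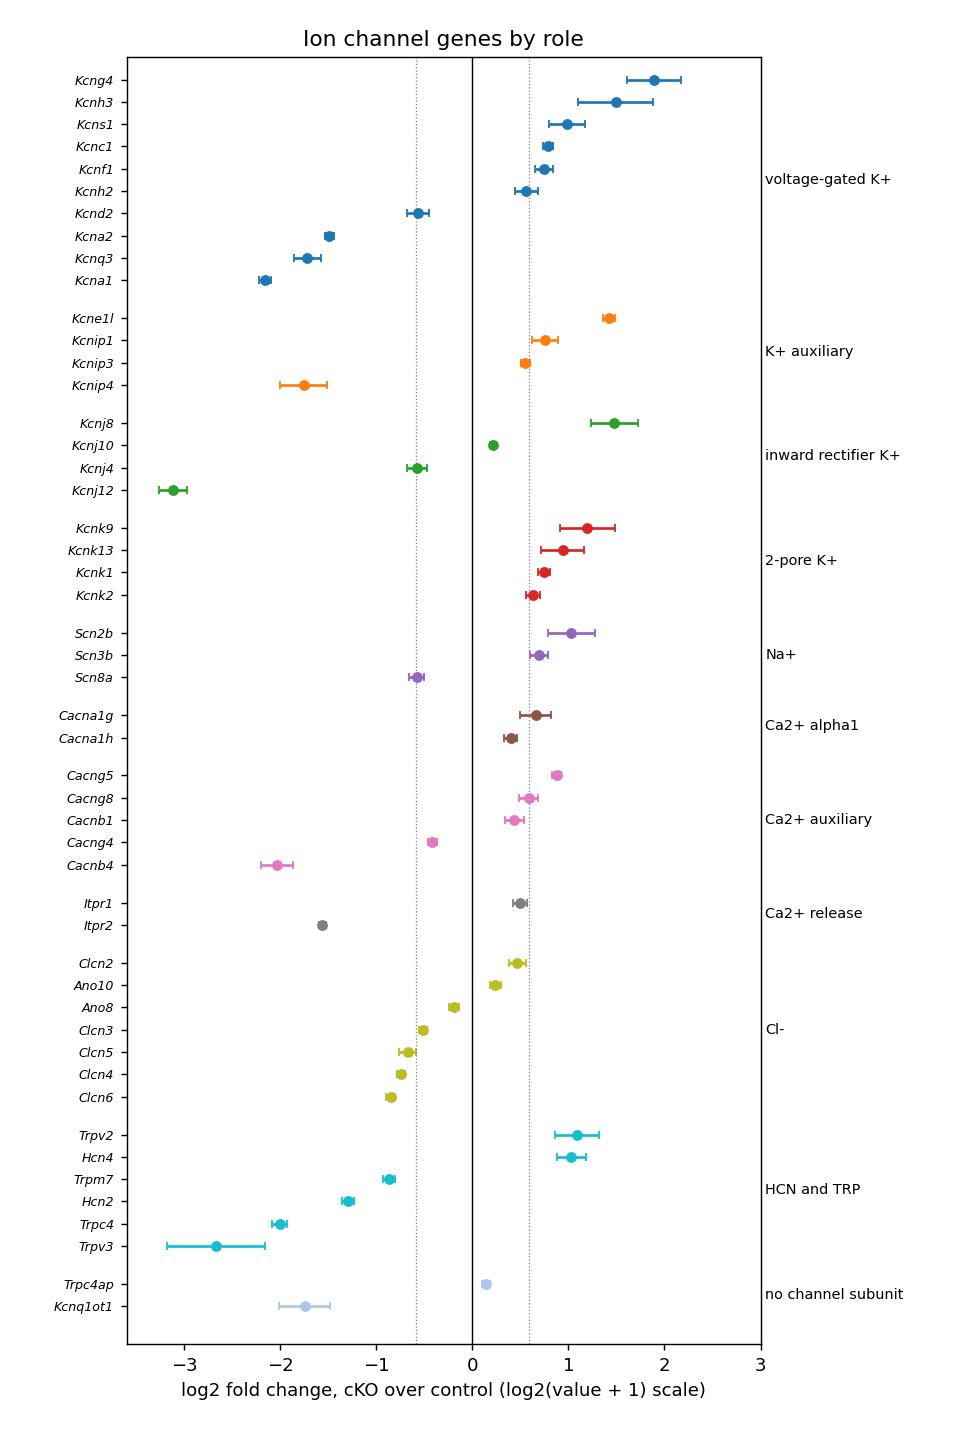
Log2 fold change, cKO over control, of 49 of the 54 members (points) with the standard error from limma (bars), grouped by role. Dotted lines mark 1.5-fold either way. The 4 genes of 2-pore channels all lie to the right of 0, and the largest falls drawn are those of Kcnj12, Trpv3 and Kcna1.

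Potassium channel auxiliary genes were higher in 3 of 4 members, before and after GC correction (46.7% and 33.1% of listed genes). Kcne1l encodes a small membrane protein that modifies voltage-gated channels. It measured 622.0 and 599.7 in controls, against 1638 and 1639 in cKO libraries, 2.68-fold higher (log2 fold change 1.42 with SE 0.06, and adjusted p 1.11e-15 by limma). Kcnip1, Kcnip3 and Kcnip4 encode calcium sensors that bind the Kcnd channels. Kcnip3 rose 1.47-fold to 3873 ± 262 and Kcnip1 1.69-fold to 271.8 ± 33.4, while Kcnip4 fell from 91.7 ± 11.7 to 26.3 ± 2.0, 3.48-fold. After GC correction the log2 fold change of Kcnip4 went from -1.76 to -1.05 and that of Kcne1l from 1.42 to 1.00. The log2 fold change of Kcnip3 shrank from 0.55 to 0.20, and that of Kcnip1 went from 0.75 to 0.91. The calcium sensor genes therefore did not move as a block.

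Inward rectifier genes held both the steepest fall of all members and the most abundant member. Kcnj12 (ENSMUSG00000042529, chr11:61022564-61071131) encodes a strong inward rectifier, a channel that holds the membrane near the potassium potential. It measured 443.0 and 500.9 in controls, against 58.8 and 48.7 in cKO libraries. The control values are high and the cKO values low, with no overlap, and the gene was 8.79-fold lower (log2 fold change -3.12 with SE 0.15, and adjusted p 4.44e-15 by limma). Its transcript is GC-rich (56.5%), and after GC correction the log2 fold change was -3.51. Kcnj4, another strong inward rectifier gene, was 1.49-fold lower, from 354.1 ± 6.9 to 237.1 ± 15.4.

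Kcnj10, which encodes the weakly rectifying channel of astrocytes and oligodendrocytes that takes up potassium, measured 12419 and 12656 in controls, against 14653 and 14357 in cKO libraries. The cKO values were above both controls by a small step of 1.16-fold (log2 fold change 0.21 with SE 0.03, and adjusted p 3.45e-06 by limma). Kcnj10 alone made up 16.8% and 16.9% of the summed member reads in controls, against 22.4% and 22.3% in cKO libraries. Kcnj8, which encodes the pore of the ATP-sensitive channel of pericytes, was low in all 4 libraries but rose, from 39.0 and 29.5 to 82.5 and 112.7. Its partner gene in pericytes, Abcc9, rose from 41.8 ± 10.2 to 94.7 ± 8.1.

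All 4 genes of 2-pore potassium channels, which carry the background leak current, were higher, and 3 were after GC correction (46.7% and 33.1% of listed genes). Kcnk1 measured 711.0 and 740.2 in controls, against 1177 and 1263 in cKO libraries, 1.68-fold higher. Kcnk2, a mechanosensitive member, rose 1.55-fold to 810.8 ± 17.3. Kcnk9, an acid-sensitive member, went from 49.0 and 23.4 to 69.4 and 90.2, and without the second control its call was lost (log2 fold change 0.68, limma adjusted p 0.0507). Kcnk13, which is best known from microglia, rose from 60.0 and 45.8 to 84.9 and 121.0, and it did not pass with the GC trend removed (limma adjusted p 0.0953). Reads of Kcnk2 and Kcnk1 can overlap antisense genes over 12.2% and 8.0% of their exonic bases, and the strand setting of the counting is not given in the sources used here.

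Sodium channel genes were higher in 4 of 5 members, and in 3 after GC correction (46.7% and 33.1% of listed genes). The pore-forming gene that is known from nodes of Ranvier, Scn8a, was the member that fell, from 649.8 ± 4.6 to 433.9 ± 19.0. With the length trend taken out, its log2 fold change went from -0.58 to -0.08 (limma adjusted p 0.849). After GC correction it was -0.71 (limma adjusted p 1.97e-07). Scn2b and Scn3b, genes of beta subunits, which anchor and tune the pore, both rose. Scn3b rose 1.63-fold to 547.1 ± 63.6. Scn2b went from 40.0 and 86.5 to 118.4 and 124.6, so the controls disagreed by more than the cKO libraries did, and without the first control it did not pass (log2 fold change 0.48, limma adjusted p 0.0848).

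Of the calcium channel genes, both pore-forming members were genes of low-threshold (T-type) channels and were higher, by 1.32-fold for Cacna1h and 1.56-fold for Cacna1g. With the GC trend removed Cacna1h turned (log2 fold change -0.06, limma adjusted p 1), and Cacna1g did not pass (limma adjusted p 0.549). Without the first control Cacna1g did not pass either (log2 fold change 0.43, limma adjusted p 0.0568). Beta subunit genes moved apart. Cacnb4 fell from 326.0 and 292.2 to 60.4 and 91.4, 4.07-fold, whereas Cacnb1 rose 1.35-fold, from 320.5 ± 27.6 to 433.0 ± 30.4. The beta subunit brings the pore to the membrane. Per kb, Cacnb1 was already the higher of the pair in controls (70.8 against 34.5), and the gap was wider in cKO cells (95.6 against 8.47). Cacnb1 turned after GC correction (log2 fold change -0.02, limma adjusted p 1), the log2 fold change of Cacnb4 going from -2.04 to -1.36, and 16.0% of the exonic bases of Cacnb4 overlap an antisense gene.

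Cacng4, Cacng5 and Cacng8, of the gamma subunit family, are known as partners of AMPA glutamate receptors. Cacng5 measured 2224 and 2261 in controls, against 4213 and 4025 in cKO libraries, 1.84-fold higher (log2 fold change 0.88 with SE 0.04, and adjusted p 1.30e-14 by limma). Cacng8 rose from 278.5 ± 9.2 to 418.8 ± 11.6 and did not pass after GC correction (log2 fold change 0.05). Cacng4 measured 2764 and 2741 in controls, against 2147 and 1972 in cKO libraries, 1.34-fold lower. Cacng4 had more reads per kb than Cacng5 in the controls (769.9 against 584.9) and fewer in cKO cells (576.2 against 1074).

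Genes of the calcium release channel of the endoplasmic reticulum, the inositol trisphosphate receptor, went in opposite directions. Itpr2 (ENSMUSG00000030287, chr6:146108299-146502223) measured 10787 and 10905 in controls, against 3664 and 3682 in cKO libraries. Both pairs are tight beside the gap between them, and the gene was 2.95-fold lower (log2 fold change -1.56 with SE 0.04, and adjusted p 2.99e-21 by limma). Itpr1 rose from 587.2 ± 8.2 to 827.4 ± 12.3, 1.41-fold (log2 fold change 0.49 with SE 0.07, and adjusted p 2.19e-06 by limma). Per kb, Itpr2 was still the higher in both genotypes, at 732.7 against 32.1 in the controls and 248.1 against 45.2 in cKO cells.

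**Figure D3:**
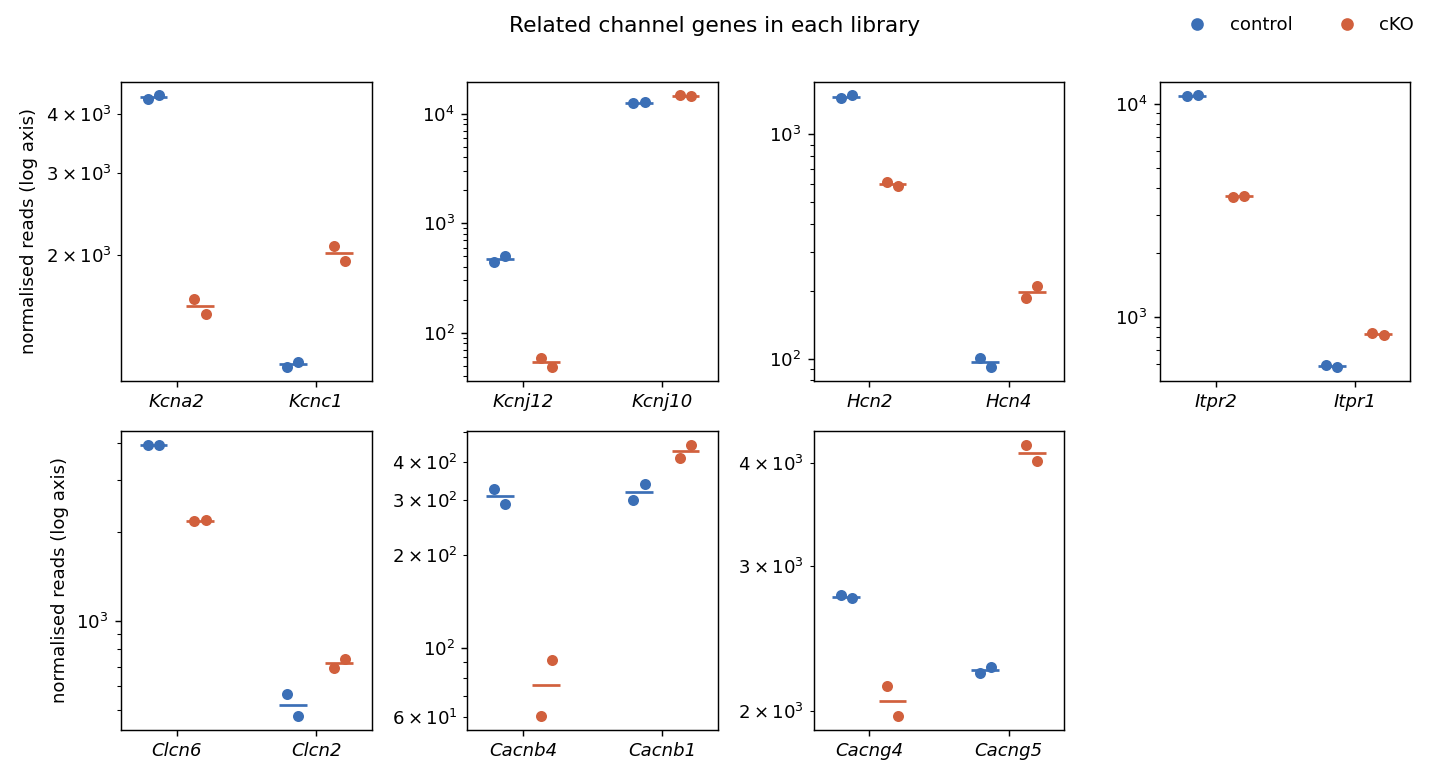
Normalised reads (log axis, a separate scale in each panel) of 7 pairs of related channel genes in each library, chosen after their values were seen. Points are libraries and bars the mean of the 2 libraries of a genotype. In every panel the gene on the left is lower and the gene on the right is higher in the cKO libraries.

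Chloride channel genes were lower in 5 of 7 members, and in 4 after GC correction (53.3% and 34.8% of listed genes). Clcn6, whose product acts in late endosomes, measured 3928 and 3957 in controls, against 2173 and 2192 in cKO libraries, 1.81-fold lower (log2 fold change -0.85 with SE 0.04, and adjusted p 1.55e-14 by limma). Clcn4 was 1.68-fold lower, from 3386 ± 18.0 to 2021 ± 15.1, and Clcn5 1.60-fold lower, from 588.4 ± 46.0 to 367.6 ± 18.2. Clcn3 was 1.43-fold lower, from 5532 ± 2.5 to 3874 ± 11.1. These are the genes of the exchangers of endosomes and lysosomes. Clcn3 was not stable to the trend corrections: its log2 fold change of -0.51 became 0.11 with the GC trend removed (limma adjusted p 0.0173) and 0.02 with the length trend removed (limma adjusted p 1). The other 3 stayed lower and passed under both. Of the exonic bases of Clcn4, 11.5% overlap an antisense gene.

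Clcn2, the gene of a chloride channel of the cell surface that glia use, was higher, from 565.0 and 475.5 to 690.8 and 745.2. The cKO values lay above both controls, but after GC correction the log2 fold change went from 0.47 to 0.01 (limma adjusted p 1). Ano8 and Ano10, of a family of chloride channels and lipid scramblases, changed least among the chloride genes on the uncorrected values, with log2 fold changes of -0.19 and 0.24. Ano8 did not pass with relative log expression factors or with the length trend removed (limma adjusted p 1 for both). After GC correction its fall was larger and it passed (log2 fold change -0.59, limma adjusted p 3.45e-09). Ano10 did not pass with the GC trend removed (limma adjusted p 1).

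HCN channels open on hyperpolarisation and pass sodium and potassium. Hcn2 measured 1457 and 1491 in controls, against 614.0 and 588.5 in cKO libraries, 2.45-fold lower (log2 fold change -1.29 with SE 0.06, and adjusted p 1.25e-14 by limma). Its transcript was the most GC-rich of all members (65.4%), and after GC correction the log2 fold change was -1.83. Hcn4 rose from 101.0 and 91.6 to 185.3 and 210.0, 2.05-fold. The change in Hcn4 was from a level per kb 29.3 times below that of Hcn2 in the controls, and in cKO cells Hcn2 remained the higher of the pair.

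TRP channels are cation channels that admit calcium and sodium. The canonical member Trpc4, which opens downstream of phospholipase C, measured 1111 and 1125 in controls, against 276.8 and 277.7 in cKO libraries, 4.03-fold lower (log2 fold change -2.01 with SE 0.08, and adjusted p 1.21e-16 by limma). Trpv3, a heat-sensitive channel of skin, was at a low level and fell from 29.7 ± 3.2 to 3.8 ± 0.4. Trpm7, a channel joined to a kinase, was 1.82-fold lower, and its log2 fold change went from -0.87 to -0.16 with the GC trend removed (limma adjusted p 0.0357). Trpv2 alone of the TRP channel genes rose, from 39.8 ± 4.5 to 85.9 ± 9.0. Trpc4ap was 1.10-fold higher and did not pass after GC correction (log2 fold change -0.06, limma adjusted p 0.376).

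Kcnq1ot1, the antisense RNA of the imprinted Kcnq1 locus, fell from 71.0 and 95.7 to 22.9 and 24.9 normalised reads. The row is annotated with 93092 bases, and its log2 fold change of -1.75 became -1.05 after GC correction (limma adjusted p 0.00101) and -0.60 with the length trend removed (limma adjusted p 0.0326). Reads of the locus on the opposite strand cannot be told apart if strand was not used in the counting.

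By level per kb of transcript, Kcnj10 led in both genotypes, with 2319 in the controls and 2683 in cKO cells. In the controls the channel genes next in order were Cacng4 (769.9), Kcnip3 (744.3) and Itpr2 (732.7), which differ from each other by little. In cKO cells those leading after Kcnj10 were Kcnip3 (1092), Cacng5 (1074) and Kcne1l (1062), a group that likewise lies close together. Itpr2 and Cacng4 had left that group. Of the 54 members, 18 had a mean of at least 1000 normalised reads and 11 a mean under 100, and 8 of these 11 were higher in cKO cells.

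Genes that work with the channels were taken from lists, and 46.7% of listed genes were higher and 53.3% lower as above. Of 20 genes of channel anchors at the node and juxtaparanode, 16 were in the table, 8 higher and 8 lower, and their median log2 fold change was -0.02. Nfasc, an adhesion molecule gene, fell from 59796 ± 1341 to 14638 ± 191, and Ank3, which encodes the scaffold ankyrin-G, fell from 3750 ± 2.3 to 1404 ± 73.4. Adam22 and Dlg1, partners of the Kcna channels, were lower (log2 fold changes -0.72 and -0.98, and -0.31 and -0.51 after GC correction). Dlg4, of the same list, was higher (log2 fold change 0.27, and 0.51 after GC correction). Cntn2 and Cntnap2, the adhesion pair that holds Kcna channels at the juxtaparanode, were higher, with log2 fold changes of 0.88 and 0.49.

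Of 22 genes of ion pumps and carriers, 14 were in the table, 9 higher and 5 lower, and their median log2 fold change was 0.44. Slc24a2, a sodium/calcium/potassium exchanger, fell from 2046 ± 44.5 to 265.5 ± 7.1, and Slc12a2, which loads cells with chloride, fell from 8152 ± 54.3 to 2790 ± 67.8. Atp1b1, which encodes a beta subunit of the sodium pump, rose from 5741 ± 183 to 8994 ± 197. Of 23 calcium store and calmodulin genes, 12 were in the table, 8 higher and 4 lower, with a median of 0.36. Camk2a and Camk2b, kinases driven by calcium, rose from 242.6 ± 11.9 to 541.9 ± 49.2 and from 891.4 ± 9.4 to 1650 ± 5.4.

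Markers of several cell types moved in the same libraries. Of 13 markers of myelin and mature oligodendrocytes, 10 were in the table and all 10 were lower, their summed level going from 325694 and 326451 to 65868 and 68095. Of 10 precursor markers, 8 were in the table, 2 higher and 6 lower (76125 and 76603 against 61152 and 59220). Olig1 is among the 6 and fell from 11990 ± 64.6 to 6844 ± 574. Its locus holds Cre in the cKO libraries alone, so an effect of the insertion on its reads cannot be told apart. The myelin and precursor markers stand beside the falls of Kcnj12, Kcna1, Kcna2, Itpr2 and Trpc4. Of 12 astrocyte markers, 11 were in the table, 9 higher and 2 lower, with sums of 554726 and 555917 against 832960 and 823690, beside Kcnj10. S100b and Aqp4 were the 2 that fell, and Aqp4 turned after GC correction (log2 fold change from -0.16 to 0.47). Fgfr3, among the 9, did not pass after it (log2 fold change -0.07, limma adjusted p 0.384). Gfap, the astrocyte filament gene and the largest part of the sum, rose to 555415 ± 2590 (log2 fold change 0.66, and 0.28 after GC correction). It had more reads than Mbp in the controls too (351796 ± 445 against 124326 ± 6.3), in cells labelled as oligodendrocytes.

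Of 12 pericyte and fibroblast markers, Kcnj8 among them, 10 were in the table and all 10 were higher, with sums of 4050 and 3842 against 12417 and 11998, beside Kcnj8. Of 12 microglia markers, 6 were in the table and all 6 were higher (2757 and 2678 against 3896 and 4087), beside Kcnk13 and Trpv2. Of 12 neuron markers, 10 were in the table, 8 higher and 2 lower, and their sum was 18610 and 18926 against 17749 and 17532. Map2 and Dcx, the largest parts of the sum, were the 2 that fell, and Dcx turned after GC correction (log2 fold change from -0.40 to 0.28, limma adjusted p 7.88e-06). The neuron markers stand beside the rises of Kcnc1, Hcn4 and 4 of the 5 sodium channel genes. They stand also beside the falls of Scn8a, Kcna1 and Kcna2. Of 10 endothelial markers, 4 were in the table, 3 higher and 1 lower (287 and 254 against 443 and 439). No listed marker was at 0 in all libraries, and the part of any of these cell types in the channel results was not tested.

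Promoter sequences from RefSeq (GRCm38.p6) were matched by symbol for 39 of the 54 members, which have 57 promoter entries. They were searched, on both strands, over the 250 bases before the start site for forms of the E-box, to which basic helix-loop-helix factors such as Olig1 and Olig2 bind. These motifs were picked after several others had been looked at. The palindrome CAGCTG stood in 19.3% of the member entries and in 13.0% of all 32851 entries. The form CAGATG, or its complement on the other strand, stood in 15.8% of the member entries and in 14.4% of all entries. The 10 members with CAGCTG were genes that fell (Kcna2, Cacnb4, Clcn5) and genes that rose (Ano10, Kcne1l, Kcng4, Kcnip1, Kcnip3, Kcnk2, Kcns1). Of all 54 members, 59.3% rose and 40.7% fell. A match of these letters is a description of the window only.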

How the data were processed

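RNA sequencing of 4 libraries gave 1 deposited table. Per the file headers it holds a normalised signal per gene and library, which the authors made by dividing read counts by a size factor per library, together with genotype means, the authors' log2 fold change, and a p-value and adjusted p-value (the authors' deposited values). The submitters' processing notes name DESeq2 and the builds mm10 and GRCm38, while the aligner, counter, strand setting and annotation release are not given in the sources used here. Columns with values of other samples numbered 0. The largest adjusted p in the authors' deposited table was 0.0499, and the adjusted p-values imply that 17347 genes lay behind them, of which 40.0% were listed. Zdhhc5 was not analysed here.

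The log2(value + 1) of all 6940 genes was fitted with limma 3.58.1 (variance trend, genotype only, 2 residual degrees of freedom). The filter asked for a value of 1 or more in 2 libraries, and p-values were adjusted over 17347 genes. Since the variance was pooled over genes selected for their difference, p-values may be too low. On simulated data with 6940 genes, limma recovered 70%, 94%, 100% and 100% of genes changed 1.25-fold, 1.5-fold, 2-fold and 4-fold, with 4 false calls. The simulation took its spread from these same selected genes, so its false calls do not measure the error of the real comparison. Whole reads were recovered from the values (100% within 0.01 read in each library; the low values of the control libraries alone would not show the step) for edgeR 4.0.16 and DESeq2 1.42.0 as alternatives. GC content came from the longest GENCODE M21 transcript (6934 listed genes, all 54 members). A trend was removed by subtracting a local regression of the fold change, keeping its median.

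The members and lists were chosen with earlier results of these data known. Named genes were Kcnj12, Kcna1, Kcna2 and Kcnc1, the 10 largest falls and 10 largest rises among members with a mean of at least 20 normalised reads, and the 2 members of each role with the highest reads per kb. Some of these and some other genes and sequences are not reported here, but counts, medians and sums include them. Others named were chosen after their values were seen.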

Additional observations from a re-analysis of the deposited data

How the results depend on the processing

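Of the 16 alternatives, removal of the GC trend moved the counts of higher members most: 21 members were higher in place of 32, and 10 were at least 1.5-fold higher in place of 23. Members lower numbered 19 to 22 over all alternatives, 1 of which (a mean of at least 50 reads) tested 51 members. Over the 4 fits that leave out a library, members higher ranged from 28 to 32. Of 574 refits of the 36 genes chosen by the naming rule, 567 kept their direction and side of the threshold, 6 no longer passed and 1 turned (Cacna1h, log2 fold change -0.0585 with the GC trend removed). The cause was not tested. With relative log expression factors the median log2 fold change of listed genes moved up by 0.191, so directions are relative to the authors' scaling, and 52.7% of called genes were higher in place of 46.7%. With the replicate number as a block, 32 members were higher and 22 lower, as without it. Deviations of same-numbered libraries from their genotype means had a correlation of 0.013 over genes, so no broad shared deviation was seen. With 2 libraries per genotype, this cannot show if same-numbered libraries share an origin. With edgeR 32 members were higher and 21 lower, where 47.4% of called listed genes were higher. With DESeq2 the numbers were 32 and 20, where 56.3% of called listed genes were higher, so the background share moved as well. Depth limits the 11 members with a mean under 100 reads.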
